A study of Mus musculus with 3 samples.

Results

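RNA of the intestine primordium was compared with RNA of the stomach primordium, both taken from mouse embryos of the outbred ICR strain at E11.5, counting the day of the vaginal plug as E0.5. Each organ was measured on 1 single-colour Agilent mouse expression array with Cy3-labelled RNA. A probe entered the comparison if it was no control and its signal was marked well above background for intestine, stomach or both, which held for 30539 of 41112 probes and, through probes matched to a gene symbol, for 14384 of 16998 genes. The third array of the study, of the esophagus primordium of the same stage and strain, is given beside some values as a level only.

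No genotype, transgene or treatment is given for any organ. How many embryos gave each RNA, whether they were pooled, and how much of the midgut, hindgut and pancreatic or hepatic buds the intestine dissection took in are not stated in the labels, and the extraction text speaks of stomach for every sample, so the organ was taken from the title and tissue label. With 1 array per organ no replicate stands behind any difference, no test was run, and precision is limited by the number of arrays. Each primordium is a mixture of epithelium, mesenchyme, mesothelium, nerve and vessel cells, and fewer cells of a type and less RNA per cell cannot be told apart in such samples.

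The adult gut tube derives its regional identity from transcription factors that are set before villi or gastric glands form. In the endoderm, the caudal-type homeobox factor Cdx2 directs intestinal fate and Sox2 marks the foregut, including the stomach. In the mesenchyme around it, Barx1 promotes stomach identity and Hox genes mark position along the body axis, while the pylorus forms at the border of the organs from mesenchyme that holds Nkx2-5, Six2 and others.

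A level is the log2 of the processed signal minus the 75th percentile of its array, and a difference is the level in intestine minus that in stomach, both in log2 units. Where a probe was well above background on only 1 array, the difference is a lower bound on the size of the gap and the fold carries the words at least. The 75th percentile of the signal was 1023 in intestine and 334 in stomach, and 74.0% and 67.9% of spots were well above background. Spots of 1 probe printed repeatedly had a median SD of 0.077 log2 units in intestine and 0.089 in stomach, and different probes of 1 gene differed by a median SD of 0.31. These are errors within an array and hold no variation between embryos.

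Some genes of the intestinal epithelium stood far above the stomach, and the 250 bases before their transcription start are shown for the 4 that were at least 16-fold higher on both arrays and matched a promoter. The search was for TTTATNG on both strands, a form of the AT-rich site that Cdx factors bind. Sequences are from RefSeq, assembly GRCm38.p6, read along the gene's own strand. Capitals mark a match.
Lgals2 (chr15:78855530-78855779, minus strand): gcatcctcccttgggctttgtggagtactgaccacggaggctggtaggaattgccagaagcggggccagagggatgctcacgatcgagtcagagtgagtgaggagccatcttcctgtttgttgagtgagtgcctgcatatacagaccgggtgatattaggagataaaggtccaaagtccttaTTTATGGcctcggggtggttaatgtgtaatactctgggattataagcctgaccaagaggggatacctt
Fabp1 (chr6:71199629-71199878, plus strand): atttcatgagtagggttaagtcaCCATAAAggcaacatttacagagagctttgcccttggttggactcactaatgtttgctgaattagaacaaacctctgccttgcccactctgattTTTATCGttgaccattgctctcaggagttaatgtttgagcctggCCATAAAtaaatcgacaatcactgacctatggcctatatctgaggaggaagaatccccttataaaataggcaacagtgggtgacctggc
Isx (chr8:74872924-74873173, plus strand): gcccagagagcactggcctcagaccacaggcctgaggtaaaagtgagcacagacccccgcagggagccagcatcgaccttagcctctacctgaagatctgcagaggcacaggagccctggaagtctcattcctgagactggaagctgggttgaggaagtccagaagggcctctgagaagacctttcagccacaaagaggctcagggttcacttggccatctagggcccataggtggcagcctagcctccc
Cdx2 (chr5:147307250-147307499, minus strand): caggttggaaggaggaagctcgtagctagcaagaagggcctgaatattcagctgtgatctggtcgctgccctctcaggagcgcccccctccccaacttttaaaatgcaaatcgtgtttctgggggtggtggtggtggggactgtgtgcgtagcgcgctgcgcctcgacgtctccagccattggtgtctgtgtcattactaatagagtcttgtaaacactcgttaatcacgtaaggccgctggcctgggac

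The promoter of Lgals2, which encodes the galactose-binding protein galectin-2, held 1 match, 68 bases before the start. That of Fabp1, a fatty acid binding protein of enterocytes and hepatocytes, held 3, of which the farthest lay 227 and the next 133 bases before the start. The windows of Isx and Cdx2 held none, which says only that these letters are not there. Tdh met the same level rule. Over all 32851 promoters of the same length, 9.81% held the motif. It stood in 13.6% of the 176 promoters of genes at least 4-fold higher in intestine, in 12.7% of the 142 of genes at least 4-fold lower, and in 6.93% of the promoters of all measured genes. A match is a string of letters and not a known site.

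Most genes lay close together in the 2 organs. Of the 14384 genes, 12101 (84.1%) differed by less than 2-fold, and the median difference was −0.02. At least 4-fold higher in intestine were 198 genes (1.38%), 137 of them measured on both arrays and 61 as bounds. At least 4-fold lower were 178 (1.24%), 123 measured on both arrays and 55 as bounds. At 16-fold the counts were 31 and 23. At 2-fold they were 686 higher (4.77%) and 1033 lower (7.18%). The counts of the gene lists given below are to be read against these 4-fold and 2-fold shares of all genes. The split of the 4-fold calls was 52.7% higher under the scaling used, 63.4% under quantile normalization (234 higher, 135 lower) and 67.9% after centring on the array median (254 and 120), which moved the median difference of all genes from −0.02 to 0.26. Correction of the background with normexp, which shrinks differences of dim genes, left 50 higher and 61 lower.

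**Figure D1:**
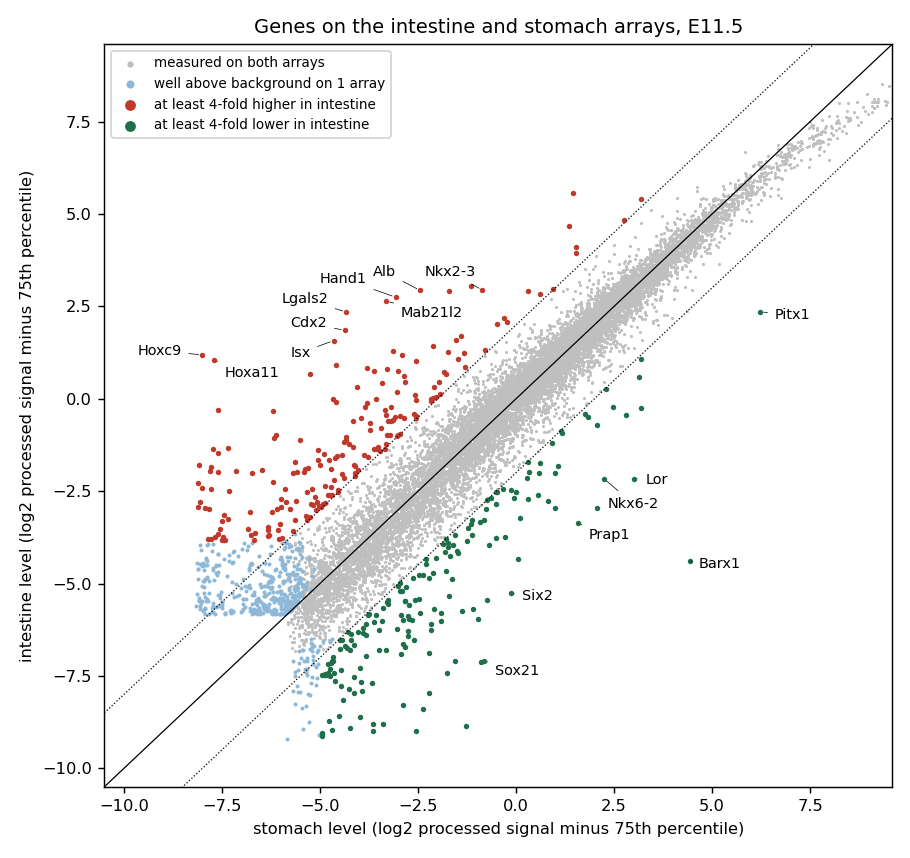
Level of each of the genes in stomach (horizontal) and in intestine (vertical), in log2 processed signal minus the 75th percentile of the array, 1 array per organ. The solid line marks equal levels and the dotted lines a 4-fold difference. Most points follow the solid line, 198 red genes lie at least 4-fold higher in intestine and 178 green genes at least 4-fold lower, with Cdx2, Isx, Hand1 and Lgals2 far to the upper left and Barx1 far to the lower right.

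Another measured probe was present for 45 of the higher genes, and in 41 all probes had the same sign. Among the lower genes this held for 34 of 35. Among the 13273 genes measured on both arrays, with the bounds left out, the 4-fold calls sat mostly in dim to middling genes. Where the brighter of the organs had a level from −2 to 0, 58 genes passed 4-fold toward intestine and 40 toward stomach, and where it was above 4, 5 and 2 were. Genes measured on both arrays with a level from −6 to −4 had 0 higher and 8 lower. The intestine array reached further down relative to its 75th percentile (to −6.97) than the stomach array (to −5.84). For the bounds, which take these floors, those with intestine as the dim organ can therefore read larger, and with 1 floor for both arrays 134 genes were at least 4-fold lower in place of 178.

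The organ labels were checked against 5 marker genes. Cdx2, the regulator of intestinal identity, had a processed signal of 3688 in intestine against 16.1 in stomach and 1.47 in esophagus. Isx, an intestine-specific homeobox factor, read 3048, 13.3 and 1.79. Hand1, a basic helix-loop-helix factor of gut mesenchyme, read 6878, 39.7 and 9.41. All 3 intestinal markers were therefore high on the intestine array alone. Barx1, the homeobox gene of stomach mesenchyme, read 48.7 in intestine, 7212 in stomach and 717 in esophagus. Six2, a homeobox gene of posterior stomach mesenchyme, read 26.7, 304 and 73.8. Both stomach markers were highest on the stomach array, and on the scale of levels the differences were 74.6-fold for Cdx2, 74.9-fold for Isx, 56.6-fold for Hand1, 454-fold in the opposite direction for Barx1 and 34.9-fold for Six2. The scanner's own error of these differences was 0.21 to 0.26 log2 units.

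Homeobox genes, which encode transcription factors that share a DNA-binding homeodomain, were often far apart between the organs. Of 201 such genes 189 had a probe and 152 were measured. At least 4-fold higher in intestine were 15, and 18 were at least 4-fold lower. Together these are 33, or 21.7% of the measured homeobox genes, where 2.61% of all genes were at least 4-fold apart. At least 16-fold apart were 8 on the intestinal side and 5 on the stomach side. The number at least 4-fold apart was 20 after normexp correction, and it was also 20 when a signal above background was required on both arrays, since many of these genes were on in only 1 organ.

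Hox genes, which lie in 4 clusters and are numbered by position within them, differed by group. Groups 9 to 13, the most posterior, had 13 measured members, of which 9 passed 2-fold and 7 passed 4-fold toward intestine and 1, Hoxb9, was at least 4-fold lower. Hoxc9 had a level of 1.19 in intestine and −3.81 in esophagus, and was not well above background in stomach (−8.0). Hoxa11 had levels of 1.04, −7.71 and −7.25. Both were on in intestine and below detection in stomach, a difference of at least 130-fold for Hoxc9 and at least 118-fold for Hoxa11. Hoxa10 was higher by at least 46.3-fold, Hoxd10 by at least 45.8-fold, and Hoxc10, Hoxd11 and Hoxd13 were at bounds of 4.0, 3.54 and 3.04. The other probes of Hoxc10 and Hoxd13 gave 1.57 and 0.97.

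The remaining members of these groups differed less. Hoxd9 stood at 1.82, or 5.51 by a second probe. Hoxa13 and Hoxb13, the genes of the hindgut end, were at bounds of 1.52 and 0.95, with levels of −4.32 and −4.88 in intestine. Hoxa9 stood at 0.89 and was measured in every organ, at 0.80, −0.09 and −0.19 in intestine, stomach and esophagus. Hoxb9 went the other way, at −2.68 in intestine and −0.05 in stomach, and its other probe also gave a negative difference (−1.86). The median over groups 9 to 13 was 3.29, but it was 0.97 after normexp correction and 0.89 among members above background on both arrays.

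**Figure D2:**
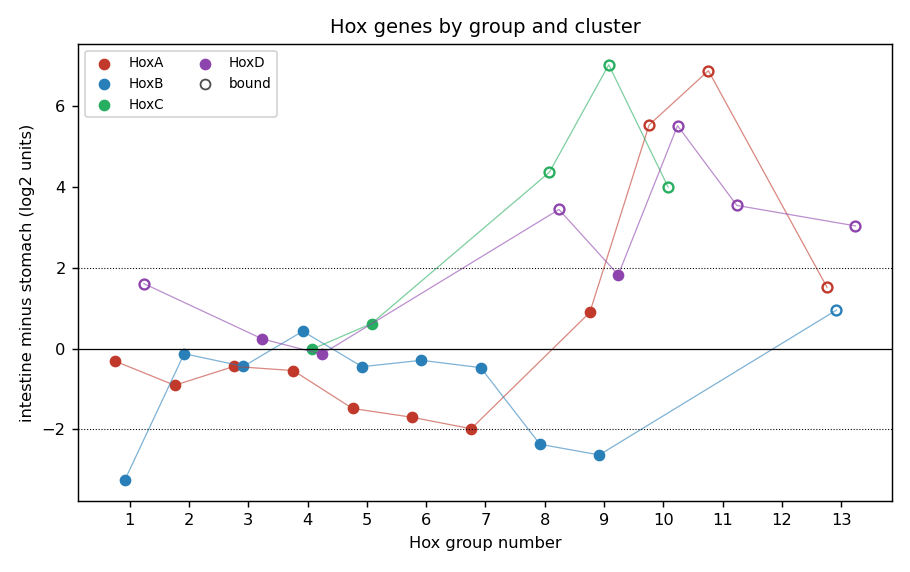
Difference between intestine and stomach, in log2 units, for each measured Hox gene by its group number, coloured by cluster, with lines joining the members of a cluster, 1 array per organ and open symbols where the value is a bound. Dotted lines mark 4-fold. Up to group 7 most points lie near or below 0, and from group 8 the C and D clusters, joined by HoxA at group 10, lie above it, while Hoxb8 and Hoxb9 lie below.

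Hox genes of groups 6 to 8 went both ways. Hoxc8 and Hoxd8 were higher in intestine and not well above background in stomach, at bounds of 4.37 and 3.44. Hoxb8 (−2.37, other probe −3.65), Hoxa7 (−1.98) and Hoxa6 (−1.70) were lower in intestine, and Hoxb7 (−0.47) and Hoxb6 (−0.29) were within 2-fold. In these groups, therefore, the 2 genes higher in intestine lay in the C and D clusters, and the 3 at least 2-fold lower in the A and B clusters. Groups 1 to 5 held 15 measured members, their median was −0.31, and 12 lay within 2-fold. Hoxb1, best known from the hindbrain, was at least 4-fold lower in intestine, at −4.88 against −1.63 in stomach, a difference of −3.25. Hoxa5 stood at −1.48 and Hoxd1 at a bound of 1.61.

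Outside the Hox clusters 117 homeobox genes were measured, of which 6 were higher in intestine by 4-fold or more and 15 lower. Besides Cdx2, Isx and Nkx2-3, those higher included Hopx (2.20) and Lhx6 (2.11), both measured in intestine and stomach. Those lower included Barx1, Six2, Tlx1, Nkx6-2, Nkx2-5, Pitx1 and Isl1, described with the stomach below, and also Lhx9 (a bound of −6.07, other probe −2.52), Irx5 (a bound of −3.49), Mnx1 (−3.27), Nkx6-1 (−2.88), Pou3f1 (−2.31), Dlx5 (−2.17) and Irx2 (−2.17). Lhx9 is a LIM-homeobox factor of mesothelium and gonad, and Mnx1 and Nkx6-1 act in the early pancreas.

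Among 25 regulators of the intestinal epithelium, all measured, the gap of Cdx2 and Isx was not shared by the rest. At least 4-fold higher in intestine were 4. Nr5a2, a nuclear receptor of endoderm, had levels of 0.06 in intestine and −2.04 in stomach, and Prdm1, a repressor that holds back maturation of the fetal intestinal epithelium, −1.23 and −3.32. They stood 2.10 and 2.09 log2 units higher in intestine. Past 2-fold were also, among others, Nr1h4, the bile acid receptor, at a bound of 2.0, and Hnf4a at 1.07, whose other probe gave −0.44.

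Several regulators that the adult intestine relies on were level or lower. Hnf4g (0.03), Gata5 (−0.23) and Gata6 (−0.26) were within 2-fold, and Gata4 stood at −1.24. Klf5 and Klf4, zinc-finger factors of gut epithelium, stood at −1.94 and −1.49. Cdx1, the paralogue of Cdx2, was not well above background in intestine. In stomach (−5.57) it lay just above the lowest level called well above background there (−5.84). Its bound of −1.40 rests on the deeper floor of the intestine array (−6.97), so Cdx1 was near the detection limit in both and no direction is read from it. Atoh1, which directs secretory cell fate, was not well above background in intestine (−8.40) or esophagus (−7.47) but was measured in stomach (−2.36), at least 24.4-fold lower in intestine. The list had a median of −0.13, or 0.16 after centring on the array median, close to that of all genes under either. After normexp correction it was −0.78, where the median of all genes was −0.10.

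Among the listed products of the intestinal epithelium 39.3% of the measured genes passed 4-fold toward intestine, and among its listed regulators 16%. Both lists were drawn up with earlier results of these data known, so the contrast describes these lists only. Of 34 listed genes 28 were measured, with 13 that passed 2-fold and 11 that passed 4-fold toward intestine and 2 that were 4-fold lower or more. Their median was 1.20, with 8 members as bounds. It was 0.61 without a filter on dim probes, 0.89 under quantile normalization and 0.97 after normexp correction. Lgals2 had levels of 2.35 in intestine, −4.33 in stomach and −7.16 in esophagus, a 102-fold difference between intestine and stomach. Tdh, a threonine dehydrogenase, had levels of 3.05, −1.16 and −2.91 and was 18.4-fold higher. Vil1, which bundles actin in microvilli, had levels of 0.62, −2.85 and −5.58. In all 3 of these genes the stomach lay between the other organs.

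Fabp2, a fatty acid binding protein of enterocytes, was 12.5-fold higher in intestine (3.64, or 2.30 by a second probe). Vil1 was 11.1-fold higher, with its other probe at 3.63. Tff3, a trefoil peptide of goblet cells, stood at 3.21, Dpp4, a brush border peptidase, at 2.57 with other probes from −0.01 to 2.91, Krt20, a keratin of mature enterocytes, at 2.11, and the cadherin genes Cdh17 and Cdhr5 at bounds of 2.19 and 2.04. Among those lower in intestine was Guca2b, which encodes the gut hormone uroguanylin, at −5.70 in intestine and −2.10 in stomach. Fabp1 was 25.3-fold higher, but its levels of 0.01 in intestine, −4.66 in stomach and −2.98 in esophagus put the stomach last, as for the liver genes given further on.

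Endoderm genes shared along the gut did not show a gain in intestine. Of 22 measured, 20 were within 2-fold, 0 were at least 2-fold higher and 2 were lower, with a median of −0.47. Epcam (0.25) and Cdh1 (−0.51), which mark epithelium, Foxa3 (0.26), Foxa1 (−0.34) and Cldn7 (0.47) were within 2-fold. Foxa2, a forkhead factor of early endoderm, was lower in intestine, at −0.21 against 2.47 in stomach and 2.82 in esophagus. Krt18 stood at −1.06 and its partner Krt8 at −0.93.

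The mesenchyme of the intestine differed from that of the stomach in few of the listed regulators. Of 23 measured midgut and hindgut mesenchyme regulators, 17 were within 2-fold and 3 were at least 4-fold higher. Hand1 had levels of 2.75 in intestine, −3.07 in stomach and −5.38 in esophagus. Mab21l2, a factor of ventral body wall and eye development, had levels of 2.64, −3.31 and −4.68, a 62.1-fold difference. Nkx2-3, a homeobox gene of midgut mesenchyme and spleen, had levels of 2.94, −0.86 and −3.89, a 13.9-fold difference. The 3 genes shared the order intestine, stomach, esophagus.

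Their relatives and the general gut mesenchyme factors lay close together. Hand2, the paralogue of Hand1, stood at 0.19, Mab21l1 at 0.82, Foxf1 at −0.95, Foxf2 at 0.56 and Tbx3 at 0.27. Tbx18 was at a bound of −2.02 and was not well above background in intestine. Of 11 measured genes of left-right asymmetry and gut rotation, 2 were at least 4-fold lower in intestine, Isl1 and Tbx18, and 0 at least 4-fold higher.

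In stomach mesenchyme and pylorus, 12 of 23 measured regulators were at least 2-fold lower in intestine, 7 at least 4-fold, and 1, the BMP antagonist Grem1 (1.07), was at least 2-fold higher. The median was −1.04. Barx1 had levels of −4.39 in intestine, 4.43 in stomach and 0.87 in esophagus. Six2 had levels of −5.26, −0.14 and −2.41. Nkx2-5, a homeobox gene of the pyloric sphincter, spleen and heart, had levels of −2.96, 0.99 and −0.14. In each of these the stomach was highest, the esophagus next and the intestine last.

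Pitx1, a paired-type homeobox gene, was bright everywhere, at 2.35 in intestine, 6.23 in stomach and 4.66 in esophagus, a 14.7-fold gap between intestine and stomach. Tlx1, needed for the spleen, was measured in stomach alone (−1.77) and was at least 36.7-fold lower in intestine. Osr1, a zinc-finger factor of foregut mesenchyme, stood at −3.44 (other probe −3.24), with the esophagus (4.25) above the stomach (3.19). Isl1, a LIM-homeobox factor of the pylorus, stood at −2.77. Nr2f1 (−1.94), Msc (−1.68) and the BMP receptor gene Bmpr1b (−1.56) were lower by smaller amounts, while Tcf21 (0.79), Sfrp1 (0.50) and Osr2 (0.47) were within 2-fold.

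**Figure D3:**
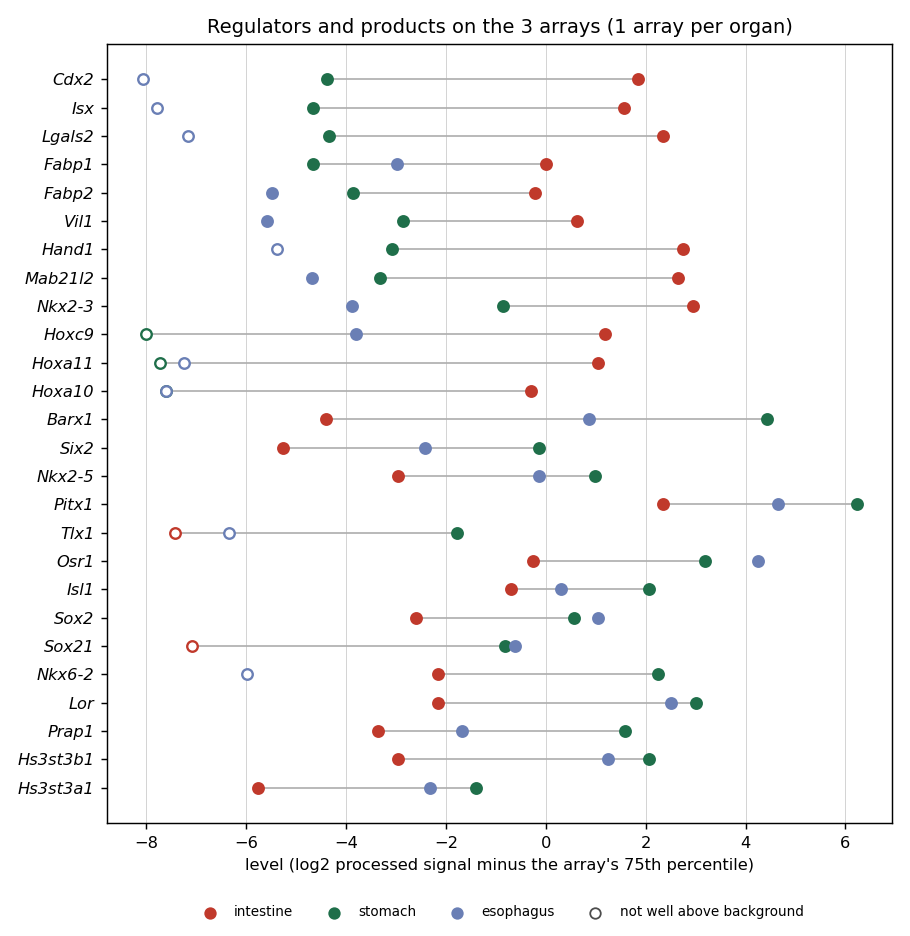
Level of 26 regulators and products in intestine, stomach and esophagus, in log2 processed signal minus the 75th percentile of the array, 1 array per organ and open symbols where the probe was not well above background. From Cdx2 to Hoxa10 the intestine point lies to the right of the stomach point, and from Barx1 to Hs3st3a1 it lies to the left, and among these last genes the widest gap is at Barx1 (−8.83).

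In the epithelium, regulators of the anterior gut were measured in stomach but faint in intestine. Of 17 listed genes 13 were measured, and 9 lay 2-fold or more lower in intestine, 8 of them 4-fold or more. The count 2-fold or more higher was 0, and the median −3.17. Sox2 was measured in every organ, at −2.60 in intestine, 0.57 in stomach and 1.04 in esophagus, a 9.02-fold difference. Sox21, a related SOX factor, was not well above background in intestine (−7.09) and had levels of −0.82 in stomach and −0.62 in esophagus, at least 71.1-fold lower in intestine. Sim2, Trp63, Irx5 and Pax9 were likewise bounds, from −5.69 for Sim2 to −3.31 for Pax9. Trp63, the p63 factor of basal squamous cells, was at least 27.1-fold lower in intestine, and its level in esophagus (0.25) was above that in stomach (−2.21).

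Because 6 of these 8 differences are bounds, the median depended on how dim signals were treated. It was −2.17 with 1 floor for both arrays, −1.78 after normexp correction and −0.54 among members above background on both arrays, and the sign was the same in each. Eya1 (0.16) was within 2-fold, and Nkx2-1, Pax1, Foxe1 and Irx3 were below background in both organs.

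Products of stratified epithelium were also lower in intestine where they differed. Of 12 measured, 6 lay 2-fold or more lower, 3 of them 4-fold or more, and 0 at least 2-fold higher. Lor, of the cornified envelope, had levels of −2.16 in intestine, 3.02 in stomach and 2.51 in esophagus, a 36.2-fold difference. Anxa8, an annexin of stratified epithelium, had levels of −5.45, −0.75 and 2.08. Krt15 stood at −2.53 and Krt5 at −1.95, while Krt14 (0.11) was within 2-fold. Sfn stood at 0.83 by the probe used and −2.74 by its other probe, so its direction was not settled.

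Gastric products were lower in intestine in a few genes and close together in others. Of 28 listed, 20 were measured and 5 were at least 4-fold lower in intestine. Prap1, a proline-rich secreted protein, had levels of −3.36 in intestine and 1.58 in stomach, a 30.7-fold difference. It was put in this list with earlier results of these data known, so its direction does not show it to be a gastric product. Nkx6-2, a homeobox gene of posterior stomach epithelium, had levels of −2.16 in intestine, 2.24 in stomach and −5.99 in esophagus, and was 21.2-fold lower in intestine. Agr2, a disulfide isomerase of mucous cells, stood at −3.34, Cldn18, a claudin of stomach and lung, at a bound of −3.98 and Vsig1, a junction protein of stomach, at −2.63. The acid pump genes Atp4a (−0.10) and Atp4b (−0.13), the hormone genes Gast (0.42), Sst (0.42) and Ghrl (−0.78) and the trefoil gene Tff1 (−0.25) were within 2-fold, at levels of −5.53 to −2.91 in both organs.

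Genes outside the lists that were far lower in intestine included 3 that add sulfate to heparan sulfate chains at the 3-O position. Hs3st3b1 had levels of −2.96 in intestine, 2.07 in stomach and 1.24 in esophagus, a 32.7-fold difference. Hs3st3a1 had levels of −5.75, −1.39 and −2.32, and Hs3st2, looked up after the values of its relatives were seen, −5.81, −1.91 and −4.68. The 3 differed by −5.03, −4.36 and −3.90, while Hs3st1 stood at 0.51 and Hs3st5 was below background. These genes share similar catalytic domains, and their probes were not checked against each other.

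Among other genes with the largest differences toward the stomach were Kctd8, an auxiliary subunit of the GABA-B receptor (31.5-fold), Dmrt2, a DM-domain factor (−4.59), Pappa, a protease that frees insulin-like growth factor (20.7-fold, or a bound of −2.0, just short of 4-fold, by its other probe), and Scrg1 (17.0-fold). Tbx5, the T-box factor of heart and lung mesenchyme, was at least 42.6-fold lower in intestine, with a level of 2.4 in esophagus and −1.56 in stomach. Klk1b3, 15.3-fold lower, belongs to a kallikrein family of near-identical genes that its probe may not separate. Toward the intestine, Cyp2c40 was at least 29.0-fold higher by the probe used and 1.85 log2 units by its other probe, and it too has near-identical relatives.

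Most transcripts of hedgehog signalling, by which gut epithelium instructs its mesenchyme, were close in level, and signalling itself was not measured. Of 17 measured genes 13 were within 2-fold, 1 was at least 2-fold higher in intestine and 3 lower. At least 4-fold apart were 0, and the median was −0.13. The ligands Shh (0.74) and Ihh (−0.54) were within 2-fold, and Dhh stood at 1.14. The receptor and target Ptch1 was lower in intestine (−1.62), as were the co-receptor Cdon (−1.0) and Hhat, an acyltransferase of the ligands, by the probe used (−1.01, other probe 1.08). The effectors Smo (−0.24), Gli1 (−0.13), Gli2 (0.09) and Gli3 (0.45) were within 2-fold.

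Wnt ligands, receptors and R-spondins had 34 measured members, of which 12 were at least 2-fold lower in intestine, 6 of them by 4-fold or more, and 3 were at least 2-fold higher. Among the ligands, Wnt11 had levels of −2.13 in intestine and 0.29 in stomach, Wnt2 stood at −2.4, Wnt6 at −2.24 and Wnt10a at a bound of −3.02. Rspo2, a secreted enhancer of Wnt signalling, stood at −2.29 and its receptor Lgr5 at −2.17. All of these were lower in intestine. The receptors Fzd8 (1.66), Fzd10 (1.26) and Fzd7 (1.11) were higher, though the other probe of Fzd7 gave −0.52, and Fzd5 was lower (−1.82).

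Of the antagonists 15 were measured, 2 at least 2-fold higher and 4 at least 2-fold lower in intestine. Dkk2, a secreted inhibitor, had levels of 1.6 in intestine, −1.54 in stomach and −1.73 in esophagus, an 8.80-fold difference, and Sfrp5 stood at 1.42. Sostdc1, which also binds BMP ligands, was lower (−2.33). Among nuclear factors and target genes, Sp5 had levels of −3.77 in intestine and −0.51 in stomach (−3.26) and Lef1 stood at −1.83. Axin2 (0.13), a direct target, Tcf7 (−0.11) and Myc (0.60) were within 2-fold. Of the 13 measured members of this list, 0 were at least 2-fold higher and 2 lower (4.77% and 7.18% of all genes), and 10 were within 2-fold. The median was −0.45, with 8 differences negative and 4 positive.

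BMP and TGF-beta genes went both ways around a median of 0.02, with 8 of 49 at least 2-fold higher in intestine and 9 at least 2-fold lower. Over all genes these shares were 4.77% and 7.18%. Those higher included the ligands Gdf6 (1.59), Bmp4 (1.56), Gdf10 (1.22), Bmp5 (1.18) and Bmp3 (1.14) and the antagonist Grem1 (1.07), and 1 member of the list was at least 4-fold higher, as 1 was at least 4-fold lower. Bmp4, a target of hedgehog signalling in gut mesenchyme, had levels of 1.92 in intestine, 0.36 in stomach and 0.61 in esophagus. Those lower included the activin subunits Inhbb (−4.11, but −0.55 by its other probe) and Inhba (−1.98), the ligand Bmp7 (−1.05), the receptor Bmpr1b, and the response genes Id4 (−1.76), Msx2 (−1.65) and Msx1 (−1.01). The SMAD genes Smad1 to Smad7 in the list were within 2-fold.

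FGF pathway genes had a median of −0.08, with 2 of 25 at least 2-fold higher in intestine and 6 lower (4.77% and 7.18% of all genes). Fgf10, a mesenchymal ligand, had levels of −1.11 in intestine, 0.19 in stomach and −1.38 in esophagus. The feedback inhibitors Spred1 (−1.57) and Spred2 (−1.26) were lower, while Spry1 (−0.08), Spry2 (0.05) and Dusp6 (0.08) were level. Klb, the co-receptor of the endocrine FGFs in liver and gut, was not well above background in stomach and was at a bound of 3.70, and the receptor Fgfr4 stood at 1.03. In the Notch pathway 18 of 21 measured genes were within 2-fold, with the ligand Jag1 at 1.32 (other probe −0.40), the target Hey2 at a bound of 1.33 and Hes1 at −0.02.

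Retinoid genes differed in both directions within the same steps. Among the enzymes that make retinoic acid, Rdh10, which oxidizes retinol, had levels of 0.13 in intestine, −1.95 in stomach and −1.67 in esophagus, and the dehydrogenase Aldh1a2 had levels of 5.43, 4.09 and 3.57. Aldh1a1 stood at 2.28 and Cyp26b1, which degrades retinoic acid, at 1.55. Lower in intestine were the dehydrogenase Aldh1a3 (−1.67), the binding proteins Crabp2 (−1.44) and Crabp1 (−1.31), the reductase Dhrs3 (−1.33), the receptors Rarb (−1.41) and Rara (−1.16) and the degrading enzyme Cyp26a1 (−1.05). Of 18 measured, 5 were at least 2-fold higher and 7 lower, and Rbp4, the plasma retinol carrier at 3.33, is also in the liver list.

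**Figure D4:**
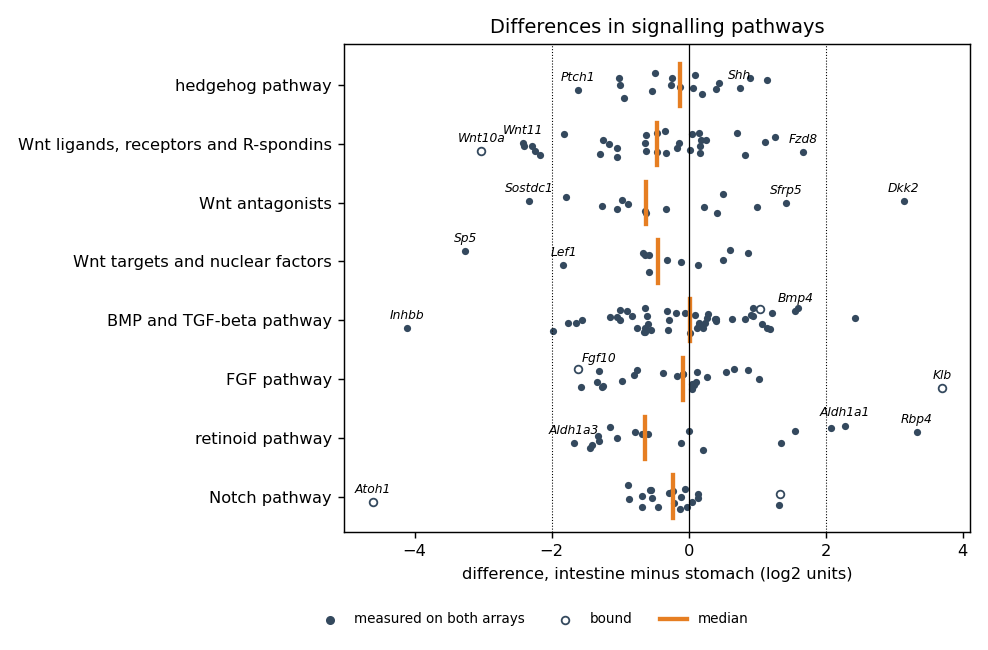
Difference between intestine and stomach, in log2 units, for the measured genes of 8 signalling lists, with 1 point per gene, open where the value is a bound, and a bar at the list median. Dotted lines mark 4-fold. The medians lie between −0.64 (retinoid genes) and 0.02 (BMP and TGF-beta genes), and few genes, such as Dkk2, Sp5 and Atoh1, lie beyond the dotted lines.

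Liver genes were higher in the intestine sample beside the intestinal products. Of 25 liver markers 20 were measured, and 18 lay 2-fold or more higher in intestine, 17 of them 4-fold or more. The count 2-fold or more lower was 0, and the median 3.50. Their summed signal, in multiples of the 75th percentile, reached 126 in intestine against 13.7 in stomach and 15.3 in esophagus. Alb, serum albumin, had levels of 2.93 in intestine, −2.45 in stomach and −0.42 in esophagus, and Ahsg, the plasma protein fetuin-A, 0.91, −4.59 and −2.61. Alb was 41.7-fold and Ahsg 45.3-fold higher in intestine than in stomach. The fetal albumin relative Afp, at 5.58, 1.45 and 3.06, the apolipoprotein Apoa2 (20.8-fold), the fibrinogen chains Fgg (25.1-fold) and Fgb (21.7-fold), and, outside the list, the plasma protease inhibitors Serpina6 (24.6-fold) and Serpind1 (22.6-fold) differed in the same direction.

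The regulators among the liver markers were much less apart. Hhex, a homeobox factor of liver and pancreas buds, stood at 1.09, and Prox1, which hepatoblasts need to migrate, at −0.55. Leaving out the liver markers only takes away the 17 of them already counted, which gives 181 genes 4-fold or more higher in place of 198. Plasma protein genes outside the list, such as Serpina6 and Serpind1, remain among them, so this is no measure of the share of hepatic genes. Many plasma protein genes are made by liver and also by visceral endoderm and fetal gut epithelium, and which tissue gave these transcripts was not tested. What part the hepatic genes have in the difference of Fabp1 and other shared products was not tested.

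Genes of the pancreas went apart in opposite directions. Cpa1, a digestive carboxypeptidase, had levels of 1.19 in intestine, −2.91 in stomach and −3.28 in esophagus, a 17.2-fold difference, and Ptf1a, the factor of pancreatic progenitors, was not well above background in stomach and was at a bound of 2.10. Mnx1 (−3.27), Nkx6-1 (−2.88), Isl1 (−2.77) and the hormone gene Gcg (−1.62) were lower in intestine. Pdx1, the factor shared by duodenum, pancreas and antrum, was dim and close, at −4.12 in intestine and −3.71 in stomach. Over 18 measured markers 3 were at least 2-fold higher and 4 lower (4.77% and 7.18% of all genes).

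Enteric neural crest cells colonise the gut from the foregut toward the hindgut at about this stage. Of their 14 measured markers 4 were at least 2-fold lower in intestine and 1 higher (7.18% and 4.77% of all genes), with a median of −0.76. The receptors Ret (−1.26) and Gfra1 (−1.78, other probe −0.60) and the glial receptor Erbb3 (−2.28) were among those lower, and Foxd3, a neural crest factor, stood at −0.76. The ligand Edn3 went the other way, with levels of −1.42 in intestine, −3.48 in stomach and −3.10 in esophagus, and the ligand Gdnf stood at 0.64. Neuron genes were closer, with a median of −0.18 and 13 of 15 within 2-fold, including Tubb3 (−0.23) and Elavl4 (−0.18), while Prph stood at 1.23.

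The lists of vessel and blood cell genes had medians within 2-fold. Endothelial genes had a median of 0.46, with 15 of 17 within 2-fold and Lyve1 (2.34, other probe 2.27), a receptor of lymphatic and early vessels, and Tek (1.73) higher in intestine. Among 13 erythroid genes 4 were at least 2-fold higher, among them the factors Klf1 (1.43) and Gata1 (1.28) and the transferrin receptor Tfrc (1.42), and 0 lower. The macrophage list had 0 of 11 measured genes at least 2-fold apart and a median of 0.17.

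Of 11 measured mesothelial genes 3 were at least 2-fold higher and 2 lower in intestine: Upk1b (2.02), Upk3b (1.45) and Aldh1a2 (1.34) were higher in intestine, Msln (−2.87) and Tbx18 were lower, and Wt1 (−0.51) was within 2-fold. The spleen list (median −1.05, 3 of 7 at least 4-fold lower) shares Barx1, Tlx1 and Nkx2-5 with the stomach list. In the urogenital list 3 of 16 were at least 4-fold lower. Of these, Six2 and Osr1 are also in the stomach list, while Lhx9, the furthest apart (a bound of −6.07, other probe −2.52), is not. Among its other members, Pax8 and Emx2 were below background in both organs, and Pax2 (−0.68) and Nr5a1 (−0.81) were dim and within 2-fold. Germ cell genes had 0 of 7 measured members at least 4-fold apart.

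Smooth muscle genes were alike in level, with 13 of 13 within 2-fold, a median of 0.06 and Actg2 at 0.06 and Tagln at 0.47, while Acta2 gave −0.47 by the probe used and 1.56 to 2.01 by its other probes. Heart genes had a median of −0.51, with 3 at least 4-fold lower in intestine (Tbx5, Nkx2-5 and Myh7) and 1 higher, Myl3 (2.05, other probe 0.23). The contractile genes of that list were dim in both organs, such as Myh6 at −5.82 in intestine and −4.59 in stomach. Skeletal muscle genes had 0 of 10 measured members at least 4-fold apart. In the trachea and lung list 2 of 7 were at least 4-fold lower, Tbx5 and Wnt2, while the lung epithelial genes Nkx2-1 and Sftpc were below background in both organs.

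**Figure D5:**
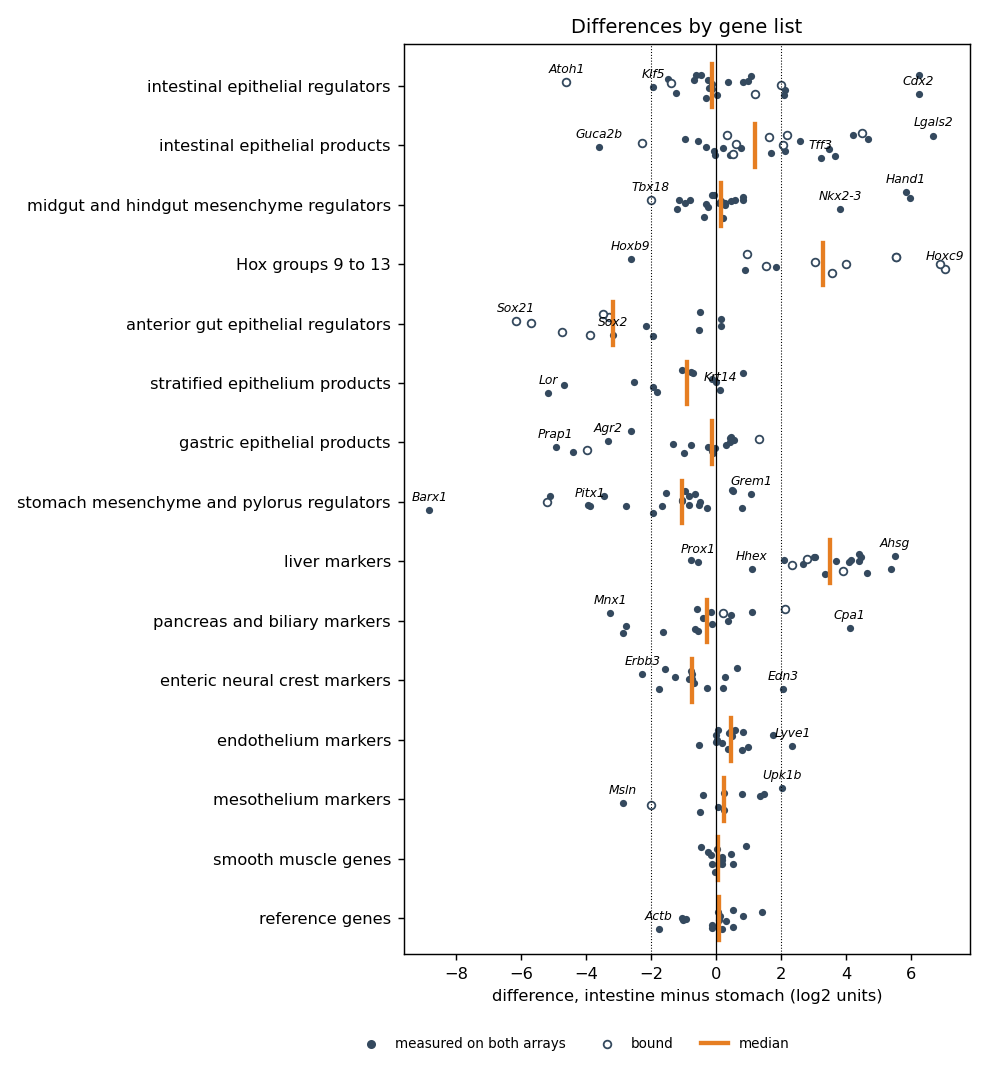
Difference between intestine and stomach, in log2 units, for the measured genes of the epithelial, mesenchymal, Hox and cell type lists, with 1 point per gene, open where the value is a bound, and a bar at the list median. Dotted lines mark 4-fold. The bars of the liver list (3.50) and Hox groups 9 to 13 (3.29) lie to the right and that of anterior gut regulators (−3.17) to the left, while intestinal regulators scatter from Atoh1 to Isx about a median near 0.

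Matrix genes went both ways, with 6 of 34 at least 2-fold higher in intestine and 3 lower. Col9a1, a collagen of cartilage and embryonic epithelia, had levels of 0.18 in intestine, −3.05 in stomach and −1.40 in esophagus. Postn, periostin, stood at 2.52 and Lum, lumican, at 1.77, while Tnc, tenascin C, stood at −2.17 by the probe used and −0.21 by its other probe. Genes of axon guidance and cell sorting had 0 of 36 measured members at least 4-fold apart and a median of −0.43, with Nrp2 (1.12) higher and Sema3d (−1.90) and Ephb1 (−1.69) lower.

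General state genes were close. The median of the proliferation genes was 0.07, 17 of 19 lay within 2-fold, and Cdk1 (1.12) and Pcna (1.01) were higher in intestine. For stress and hypoxia the median was −0.06 and 16 of 17 genes lay within 2-fold, with Atf3 (1.36) the exception. Genes commonly used as references had a median of 0.08, but Actb stood at −1.77, Eef1a1 at −1.06 and Rplp0 at −1.03, whose other probes gave 0.28 for Eef1a1 and −0.37 for Rplp0. Tfrc stood at 1.42 and is also in the erythroid list, while Gapdh (−0.13), Ppia (0.17) and Hprt (0.52) were within 2-fold. Genes with a level above 4 had a median difference of −0.19, so small negative values of very bright genes are to be read against that.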

How the data were processed

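Per the file headers, spot intensity came from Agilent Feature Extraction 10.5.1.1. The deposited processed signal is an intensity after subtraction of local background, without scaling across arrays. The deposited median intensity of spot and local background served an alternative correction (normexp, offset 50, limma 3.58.1). The deposited log2 table equals log2 signals minus 1 constant per array, with a median of −3.47 for intestine and −3.17 for stomach (esophagus −2.97). Less that constant, 99.9% of intestine and stomach probes matched the scanner value to 0.01 log2 units. It was an alternative source, and the base of its scaling is not given in the sources used here. The arrays shared 1 slide and 1 scan, so place on the slide and organ cannot be told apart.

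From the processed signals, log2 minus the array's 75th percentile (control spots left out) was averaged over the spots of a probe, without outlier spots (77 in intestine, 70 in stomach). No spot was saturated. Probes were named by unversioned accession through a RefSeq gene table (GRCm38.p6): 24342 matched 1 symbol and 16770 none. The brightest probe stood for a gene. Of 14384 genes, 13273 were well above background on both arrays and 547 on 1 array with a bound. The other 564 were well above background on 1 array, but their bound did not pass 0, so they count as measured without a fold. A bound takes, for the dim array, the higher of the lowest signal among probes well above background (8.17 in intestine, 5.85 in stomach) and the probe's own.

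The genes named are, in each direction, the 15 furthest apart among genes with 2 measured values and the 5 largest bounds, without clone, predicted and unnamed transcripts, plus members of 41 gene lists holding 867 genes, 820 with a probe. A few genes that met this rule are not reported here. Lists share some members. The comparison, the lists and the named genes were chosen with earlier results of these data known, so the counts are descriptions. Steps were tested on simulated data. Python 3.11.15, pandas 2.3.3 and R 4.3.3 were used.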

Additional observations from a re-analysis of the deposited data

How the results depend on the processing

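No paired analysis was possible because each organ had 1 array. No replicate could be left out for the same reason. After normexp background correction 50 genes stood at least 4-fold higher in intestine (198 in the main setting), 61 lower (178), and 20 homeobox genes at least 4-fold apart (33). With signal above background required on both arrays, 20 homeobox genes were at least 4-fold apart, and 4 of 41 lists had a median of at least 1 log2 unit in size, against 7. Without a filter on dim probes 268 genes were at least 4-fold lower. With 1 common floor for both arrays, an alternative added after the data were seen, 198 genes were higher and 134 lower. No named gene and no called list median reversed under the alternatives run, though the medians of lists near 0 changed sign under median centring, such as −0.13 to 0.16 for intestinal regulators. The median of trachea and lung genes was −1.31, but −0.13 without the filter on dim probes. Every alternative kept all named genes it could give at least 4-fold apart, except normexp, which kept 39 of 40, with Cyp2c40 at 1.85. Depth of signal limits dim genes: the intestine array read dim probes lower, and probes below background on both arrays had a median difference of −1.14.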

Other observations

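Genes outside the lists, chosen after their values were seen, included partners that went the same or opposite ways. Gucy2c, the receptor of uroguanylin, had levels of −1.66 in intestine, −4.78 in stomach and −5.52 in esophagus, an 8.67-fold higher signal in intestine, where its ligand gene Guca2b was 12.1-fold lower. Cubn and Amn, which encode the subunits of the receptor for vitamin B12 bound to intrinsic factor, were both higher in intestine, Cubn 8.18-fold and Amn at least 7.30-fold. The microvillus and transport genes picked here were also higher in intestine. Anxa13 was 10.6-fold, the calcium-binding S100g 5.98-fold, the scaffold gene Pdzk1 3.39 log2 units and the bile acid transporter subunit Slc51a at least 12.1-fold higher. They were picked by their values, so their direction says nothing of such genes as a class. Pyy, a hormone of enteroendocrine cells, was 5.88-fold higher.

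Beside the pancreatic Cpa1, the exocrine genes Sycn and Pnliprp1 were 7.79-fold and 6.76-fold higher in intestine. Among genes of mucous and secretory cells, Spdef, a factor of goblet cells, was 5.91-fold lower in intestine, with levels of −3.70 in intestine, −1.13 in stomach and −4.70 in esophagus, and Atoh1 and Agr2 were lower as well, while the goblet cell peptide gene Tff3 was 9.27-fold higher and the mucin gene Muc13 was higher at a bound of 1.63 log2 units. The glutathione peroxidase gene Gpx2 was 8.15-fold lower. No reason for any of these values was tested.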
